A study of Homo sapiens with 8 samples.

Results

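The 4 libraries compared here came from U2OS cells, a human osteosarcoma line. They were 2 libraries labelled Zab + MYC O/E and 2 labelled WT, out of 8 in the series, and were chosen by the genotype in the labels. The other 4 were 2 labelled Zab and 2 labelled MYC O/E, where O/E stands for overexpression. All 8 were TT-seq libraries, made from RNA that had taken up the uridine analogue 4-SU, so that newly made transcripts were read. The construct behind Zab, the promoter that drove MYC and the number of clones are not given in the sources used here. Nothing in the labels ties the 2 replicates of a group to different cultures, so each p-value reflects library-to-library spread alone, possibly technical.

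As background, MYC is a transcription factor that binds DNA as a dimer with MAX, most often at the E-box, and is known for raising genes of ribosome production, metabolism and the cell cycle. ADAR is an enzyme that edits adenosine to inosine in double-stranded RNA. Its Z-nucleic-acid-binding domains, often written Zαβ, bind nucleic acids in the left-handed Z form. The replication-dependent histone genes are short, lie in clusters and are transcribed mostly in S phase.

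MYC did not follow the labels, and ADAR was high in both groups compared. MYC had 774 and 749 CPM (reads scaled to a common library total, with TMM scaling) in the libraries labelled WT and 748 and 769 in those labelled Zab + MYC O/E. It had 6575 and 6586 CPM in MYC O/E and 934 and 1031 in Zab. The libraries labelled Zab + MYC O/E thus lay in the range of WT for MYC, and their groups overlapped. ADAR had 33822 and 33777 CPM in WT and 32123 and 32218 in Zab + MYC O/E, against 445 to 576 in the other 4 libraries. MAX, the partner of MYC, also overlapped, with 164 and 140 CPM in WT and 145 and 161 in Zab + MYC O/E. ADARB1, a second editing enzyme, had 17.1 and 16.7 CPM in WT and 10.8 and 12.1 in Zab + MYC O/E (log2 difference -0.52, SE 0.27, adjusted p = 0.69). ZBP1, a Z-nucleic-acid sensor, was not tested: it had 0 reads in both WT libraries and 2 and 4 in Zab + MYC O/E. Because of MYC, the groups are named here as labelled, with no claim about genotype.

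Recovered exon reads were 2981234 and 2706401 in WT and 3633889 and 3799962 in Zab + MYC O/E. Exon reads made up 13.1 of every 100 tags in WT and 13.5 to 13.6 in Zab + MYC O/E. The share was 13.6 and 13.8 in MYC O/E and 6.44 and 6.66 in Zab. Closeness in it was thus not particular to the 2 groups compared. Per gene, the chi-square between a WT and a Zab + MYC O/E library was 2.71 to 2.81. It was 2.05 between the WT replicates, 2.03 between those of Zab + MYC O/E, and 25.5 to 43.0 between libraries of any other pair of groups. Reads mostly came in twos: 77.2% to 79.5% of low counts were even in these 4 libraries. Counting in twos alone would give about 2. Replicates thus differed by little more than counting, and the p-values rest on little spread beyond it. Of 17 mesenchymal markers 13 were tested, and their list summed to 4322 to 4588 CPM in the 4 libraries, with TWIST1 at 0 reads. The epithelial list summed to 1412 to 1516 CPM with CLDN3, GRHL2 and OVOL1 at 0. The blood cell list summed to 17.9 to 21.1 CPM, with CD3E, HBA2 and GATA1 among those at 0, and the endothelial list to 8.13 to 16.8, with CLDN5, ESAM and EMCN at 0. The neural list summed to 277 to 313 CPM with DCX at 0.

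Few genes differed between Zab + MYC O/E and WT, and most by little. Histone genes, ribosomal proteins, heat shock proteins and glycolytic enzymes made up most of the genes that fell, while most that rose were in none of the gene lists. Most genes that fell drew many reads, and genes at such levels had medians below 0 as a whole. With the median of genes of like level taken off, the list medians were -0.23 for histones and -0.088 for heat shock. They were -0.010 for ribosomal proteins and 0.010 for glycolysis. The centromere motor CENPE rose most. Of 11985 genes tested, 72 (0.601%) passed limma's test after Benjamini-Hochberg adjustment (adjusted p under 0.05) and are referred to as called, 16 higher (0.134%) and 56 lower (0.467%) in Zab + MYC O/E. The change was under 0.5 on the log2 scale in 62 of the 72 and at least 1 in 3, with a median size of 0.26. At an unadjusted p under 0.05 there were 925 genes. All 72 had no overlap between the libraries of the groups, as 19.6% of all tested genes had in the higher and 20.2% in the lower direction. The median gene tested changed by -0.00034. All log2 differences are on the log2(CPM + 1) scale, as Zab + MYC O/E minus WT. On the deposited values without scaling the median gene shifted by 0.27, and 1741 genes were called higher and 2 lower, so each direction given here is relative to the median gene. With those values the sign itself changed for 37 of the 72 called genes. Of the 72, 23 kept their call, and of the 15 histones among them 0 did.

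These calls depend on each library. The counts were 6 higher and 27 lower without WT replicate 1, 7 and 21 without WT replicate 2, 4 and 25 without Zab + MYC O/E replicate 1, and 3 and 19 without Zab + MYC O/E replicate 2. Of the 72 genes, 18 were called in all 4 of these fits, among them CENPE, GOLGA4, RPS24, H1-2, H2BC11, H2BC21, ODC1 and LDHA, and 33 in none. With each pair of replicates of these 2 groups taken as 1 library, limma called 0 genes, with 199 at an unadjusted p under 0.05. edgeR on the summed reads of the pairs called 11 higher and 24 lower, and kept 34 of the 72.

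**Figure D1:**
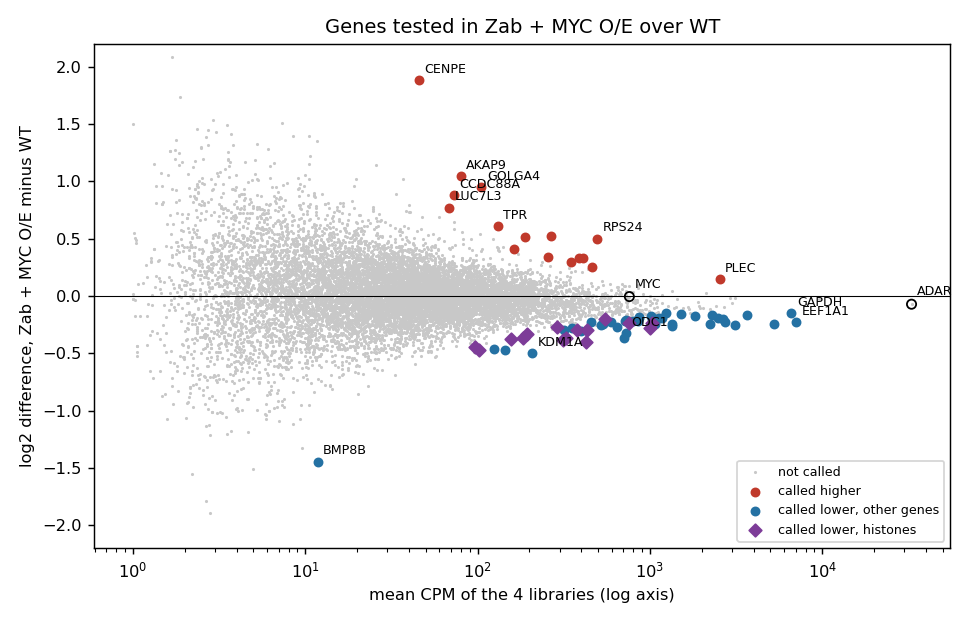
Each tested gene with at least 1 CPM is placed by its mean CPM in the 4 libraries (x, log axis) and its log2 difference, Zab + MYC O/E minus WT (y). The 16 called higher are red, the 15 called histones purple diamonds and the other called genes blue; open circles mark ADAR and MYC. CENPE stands at 1.88, while most called genes lie within 0.5 of 0.

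Promoter sequences are shown first for genes described below: histone genes that fell, CENPE, and the pair HSPE1 and HSPD1. That pair shares a start region and moved in opposite directions relative to the median gene. Each sequence is the window of 250 bases before the RefSeq start, in GRCh38.p14 and on the strand of the gene. Capitals mark 4 motifs on either strand, run together where they overlap: the octamer ATTTGCAT, CCAAT, the TATA box TATAAA and the E-box CACGTG.
H2BC11: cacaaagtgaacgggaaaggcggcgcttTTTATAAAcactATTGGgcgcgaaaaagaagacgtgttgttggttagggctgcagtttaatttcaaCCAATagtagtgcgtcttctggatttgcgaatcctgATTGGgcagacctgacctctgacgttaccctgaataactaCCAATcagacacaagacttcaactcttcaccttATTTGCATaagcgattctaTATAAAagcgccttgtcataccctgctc
H2BC21: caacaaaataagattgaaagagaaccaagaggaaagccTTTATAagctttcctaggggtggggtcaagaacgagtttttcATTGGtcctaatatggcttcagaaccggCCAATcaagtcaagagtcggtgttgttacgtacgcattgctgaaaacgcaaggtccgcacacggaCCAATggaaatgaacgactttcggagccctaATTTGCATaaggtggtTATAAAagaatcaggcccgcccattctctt
H2AC14: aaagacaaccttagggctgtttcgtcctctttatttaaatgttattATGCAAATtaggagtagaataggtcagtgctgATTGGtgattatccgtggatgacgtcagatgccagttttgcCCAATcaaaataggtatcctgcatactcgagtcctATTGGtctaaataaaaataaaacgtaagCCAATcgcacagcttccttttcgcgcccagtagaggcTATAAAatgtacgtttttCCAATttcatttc
HSPE1: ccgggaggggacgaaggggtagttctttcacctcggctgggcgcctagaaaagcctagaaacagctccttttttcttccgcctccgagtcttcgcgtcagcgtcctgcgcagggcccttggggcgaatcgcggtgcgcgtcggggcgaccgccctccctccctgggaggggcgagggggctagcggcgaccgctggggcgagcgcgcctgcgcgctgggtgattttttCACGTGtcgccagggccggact
CENPE: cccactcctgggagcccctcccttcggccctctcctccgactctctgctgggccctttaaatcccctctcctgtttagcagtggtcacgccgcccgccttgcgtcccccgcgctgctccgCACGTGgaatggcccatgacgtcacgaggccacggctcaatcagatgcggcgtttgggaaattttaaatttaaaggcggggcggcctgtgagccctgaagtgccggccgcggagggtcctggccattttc

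The windows lie at chr6:27132796-27133045 on the minus strand for H2BC11, chr1:149886683-149886932 (minus) for H2BC21, chr6:27814778-27815027 (minus) for H2AC14, chr2:197500129-197500378 (plus) for HSPE1 and chr4:103198344-103198593 (minus) for CENPE. H2AC11, which also fell, starts on the plus strand at the other end of the H2BC11 window (chr6:27132793-27133042), and H2BC14 does so at H2AC14 (chr6:27814772-27815021). The HSPD1 window (chr2:197500275-197500524, minus) overlaps that of HSPE1 and holds the same E-box. RefSeq gave a promoter for 9707 of the tested genes, 13 of the 15 called histones, 13 of the 16 genes that rose and 51 of the 56 that fell.

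Of the 13 called histones with a promoter, 8 held the octamer, 13 CCAAT and 11 the TATA box, against 1.36%, 35.3% and 5.19% of all 9707 promoters. The same motifs stood in 20, 33 and 28 of the 41 tested histones with a promoter, called or not, so the called histones are here described and not set apart. The E-box stood in 6 of 13 promoters of genes that rose (CENPE, HSPE1, CIC, VGF, DST and KMT2D) and in 5 of 51 of genes that fell (GAPDH, LDHA, HSPD1, CCNB1 and APEX1), against 9.11% of all. A match is a description of the letters and not of binding.

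CENPE, the kinesin that links chromosomes to spindle microtubules, was at 17.5 and 20.3 CPM in WT and at 75.9 and 68.5 in Zab + MYC O/E. That is 3.82-fold higher as a ratio of means, and 1.88 on the log2 scale (SE 0.22, adjusted p = 1.51e-05, n = 2 in each group in limma). These levels rested on 54 and 57 reads in WT and 294 and 277 in Zab + MYC O/E. It lies on the minus strand of hg19 chromosome 4, at 104026968 to 104119500. The transcript counted was not the same in every library compared, with exons of 8444 bases in WT replicate 1 and 8085 in Zab + MYC O/E replicate 1. In the libraries the comparison did not use, CENPE had 38.4 and 37.2 CPM in MYC O/E and 6.60 and 6.92 in Zab.

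AKAP9, GOLGA4 and CCDC88A rose next most. AKAP9, a scaffold of the Golgi and centrosome, went from 41.7 and 63.4 CPM in WT to 104 and 111 in Zab + MYC O/E (log2 1.04, SE 0.18, adjusted p = 0.00248). GOLGA4, a golgin that tethers vesicles, went from 72.1 and 70.9 to 137 and 141 CPM (0.95, SE 0.14, adjusted p = 0.000154). CCDC88A, an actin-binding protein also known as girdin, went from 52.4 and 49.9 to 103 and 87.8 CPM (0.88, SE 0.16, adjusted p = 0.00482). In each of them, as in every gene called higher, both Zab + MYC O/E libraries stood above both WT libraries. The WT libraries of AKAP9 lay furthest apart.

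LUC7L3, a splicing factor, had 51.7 and 48.8 CPM in WT and 86.0 and 87.0 in Zab + MYC O/E (log2 0.77, SE 0.17). TPR, a protein of the nuclear pore basket, had 103 and 104 CPM and then 160 and 158 (0.61, SE 0.12). KTN1, the kinesin receptor kinectin, had 224 and 216 CPM and then 320.0 and 311 (0.52, SE 0.10). DST, the cytoskeletal linker dystonin, had 368 and 356 CPM and then 449 and 462 (0.33, SE 0.074). Replicates of these 4 genes lay close together, and the groups stood apart, as they did in every called gene. PLEC, the linker plectin, had the smallest rise, from 2368 and 2440 to 2683 and 2653 CPM (0.15, SE 0.031).

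The other genes that rose without a gene list were CIC, a transcriptional repressor (133 and 147 CPM in WT, 179 and 195 in Zab + MYC O/E), KMT2D, a histone H3 methyltransferase (290 and 336, then 377 and 391), AGRN, the matrix proteoglycan agrin (224 and 229, then 282 and 294), and VGF, a secreted neuropeptide precursor (324 and 363, then 420 and 444). Their log2 changes were 0.41, 0.30, 0.34 and 0.33. None of these 4 had groups that overlapped, which held for every called gene.

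Long exons were common among the genes that rose. Of the 16, 8 had at least 8 kb of exon, against 9.32% of all tested genes, and none of the 56 that fell did. Of all 11985 tested genes 7588 were counted over the same transcript in the 4 libraries, and of the 56 that fell 52 were. The transcript counted was the same in the 4 libraries for 8 of the 16 that rose. It was not for CENPE, GOLGA4, CCDC88A, KTN1, AGRN, DST, RPS24 and RPS27A. Its part in those 8 values was not tested, and with the fit limited to genes counted over 1 transcript 10 genes were called higher.

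In MYC O/E over Zab, which shares no library with this comparison, 56.3% of all tested genes were called, 29.6% higher and 26.7% lower. There 12 of the 16 genes were higher and 4 lower, namely CIC, AGRN, VGF and PLEC. AGRN had 157 and 160 CPM in MYC O/E and 420 and 406 in Zab. VGF had 239 and 207 CPM against 666 and 695. TPR and KTN1 were among the 12 that were higher, TPR with 99.3 and 95.2 CPM in MYC O/E and 22.8 and 24.5 in Zab, and KTN1 with 290.0 and 259, then 60.03 and 44.7. The size of the difference was itself called unequal between the 2 comparisons for 12 of the 16 genes, against 41.9% of all tested genes.

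**Figure D2:**
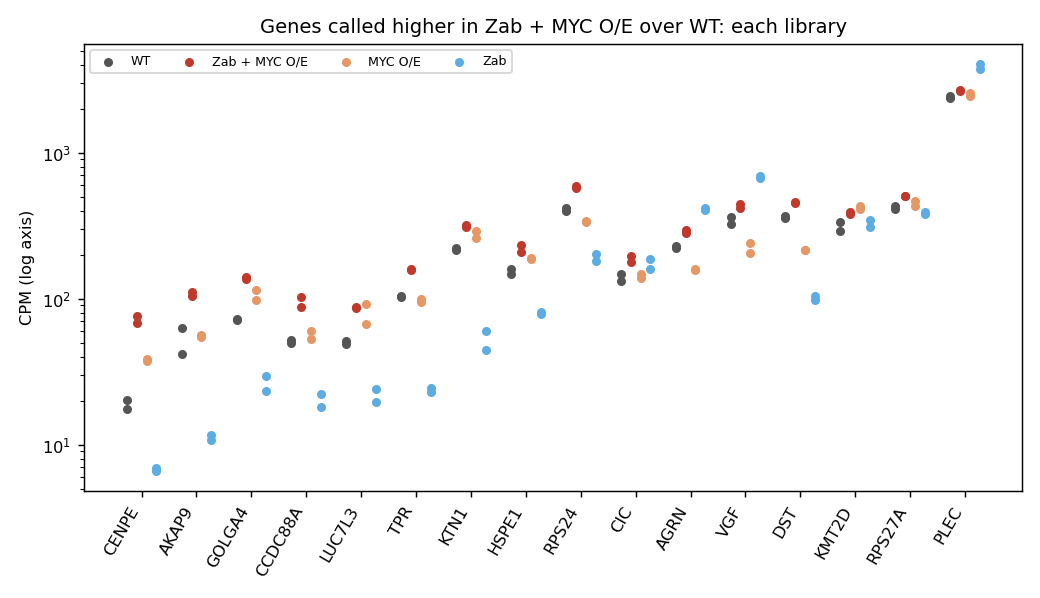
The 16 genes called higher are set out in order of log2 difference, with the CPM of each library on a log axis and a colour for each group. In every gene both Zab + MYC O/E points (red) lie above both WT points (grey), and CENPE is lowest in Zab, at 6.60 and 6.92 CPM.

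Histone genes were the largest group among those that fell. Of 58 replication-dependent histone genes in the files, 14 were not tested for want of reads. Of the 44 tested, 15 fell and 0 rose, against the background of 0.467% lower. The median log2 difference of the 44 was -0.26, and -0.23 after the median of genes of like level was taken off, against -0.00034 for all genes. Fewer cells making histone RNA and less of it per cell cannot be told apart in such bulk samples. The 54 genes of S phase and DNA replication had 0 calls in limma and in edgeR and a median of -0.021. At an unadjusted p under 0.05 there were 9 of them, against 925 of all 11985 tested genes. Both Zab + MYC O/E libraries lay below both WT libraries in 19 of the 54 and above them in 7. Over all tested genes these shares were 20.2% and 19.6%. TYMS stood at -0.19 (adjusted p = 0.166) and MCM10 at -0.37 (adjusted p = 0.166). In 34 of the 44 histone genes both Zab + MYC O/E libraries lay below both WT libraries, against 20.2% of all tested genes. Many histone genes have near-identical copies, so reads may be split between them; H4C14 and H4C15 had the same value.

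The linker histones H1, which bind the DNA between nucleosomes, fell in all 3 members tested. H1-2 had 1100.1 and 1106 CPM in WT and 915 and 907 in Zab + MYC O/E (log2 -0.28, SE 0.035, adjusted p = 2.77e-05). H1-4 had 1102 and 1112 CPM and then 913 and 973 (-0.23, SE 0.035). H1-1 had 214 and 219 CPM and then 167 and 176 (-0.33, SE 0.077). The groups stood apart in all 3 genes, as in every called gene.

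Of the H2A genes, which code for a core histone of the nucleosome, 4 of 12 fell. H2AC14 had 113 and 124 CPM in WT and 85.0 and 84.6 in Zab + MYC O/E, the largest fall among the called histones (-0.47, SE 0.089, adjusted p = 0.00482). H2AC11 had 354 and 382 CPM and then 288 and 283 (-0.37, SE 0.057), and H2AC7 and H2AC12 fell by 0.38 and 0.27. Of the H2B genes 6 of 14 fell. H2BC11, which shares its start region with H2AC11, had 359.7 and 347 CPM in WT and 273 and 269 in Zab + MYC O/E (-0.38, SE 0.053, adjusted p = 9.98e-05). H2BC21 had 493 and 481 CPM and then 395 and 343 (-0.40, SE 0.057, adjusted p = 0.000106). H2BC14, at the start region of H2AC14, fell by 0.36, and H2BC4, H2BC5 and H2BC12 by 0.30, 0.30 and 0.23. These 2 start regions are shown because both of their genes were called, and other divergent histone pairs were not compared.

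Of the H3 genes 1 of 4 fell and of the H4 genes 1 of 11. H3C2 had 613 and 559 CPM in WT and 524 and 498 in Zab + MYC O/E (-0.20, SE 0.047, adjusted p = 0.0457). H4C3 had 114 and 109 CPM and then 89.6 and 74.7 (-0.44, SE 0.10, adjusted p = 0.0392). The medians of the 5 classes were -0.28 for H1, -0.25 for H2A, -0.30 for H2B, -0.21 for H3 and -0.23 for H4. H2AC15, H2AC18, H2BC9, H2BC18 and H4C12 had values above 0 (0.14, 0.35, 0.61, 1.16 and 0.08), with SEs from 0.19 to 0.69, and none was called.

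All 15 histones that fell were also called lower in MYC O/E over Zab, as were 40 of the 44 tested (background 26.7%). H2BC11, for one, had 582 and 594 CPM in MYC O/E and 1106 and 1137 in Zab, so that the libraries labelled Zab were the highest for it and Zab + MYC O/E the lowest. With cyclic loess, a scaling that levels differences across the range of reads, 6 of the 15 were still called, H1-2, H2AC11, H2AC14, H2BC5, H2BC11 and H2BC21.

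**Figure D3:**
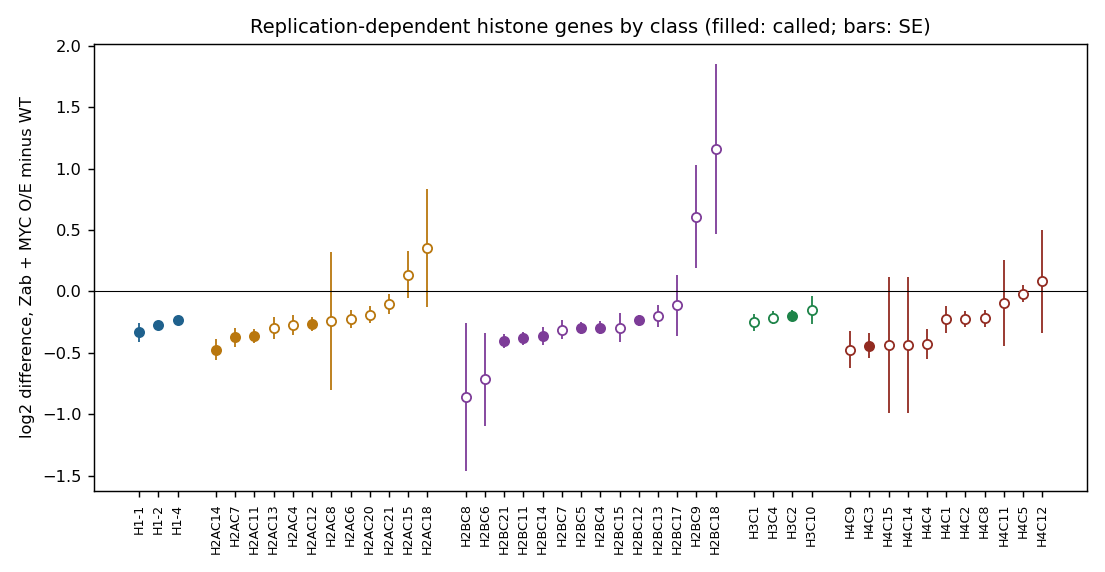
The log2 difference, Zab + MYC O/E minus WT (y), is shown for each of the 44 tested histone genes, grouped by class and ordered within it. Bars are the SE of the fit and filled points the 15 called genes. 39 of the 44 points lie below 0, and those above it are open points with wide bars.

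Ribosomal proteins moved in both directions. Of 78 tested, 10 fell and 2 rose, with a median of -0.085 for the list, against 0.467% lower and 0.134% higher over all tested genes. Among all genes of 300 to 1000 CPM 6.56% were called in either direction, and from 1000 CPM up 39.3%. Those that fell included RPL4, RPL6, RPL10, RPL15 and RPLP0 of the large subunit and RPS3A, RPS4X, RPS18 and RPSA of the small subunit. The small-subunit median of -0.076 turned to 0.005 above that of all genes with cyclic loess. RPS3A fell most, from 781 and 813 CPM in WT to 616 and 619 in Zab + MYC O/E (-0.37, SE 0.046, adjusted p = 2.57e-05). RPLP0, of the ribosomal stalk, had 2428 and 2436 CPM and then 2079 and 2024 (-0.25, SE 0.029, adjusted p = 1.54e-05).

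RPS24 and RPS27A, both of the small subunit, rose. RPS24 had 417 and 401 CPM in WT and 571 and 587 in Zab + MYC O/E (0.50, SE 0.065, adjusted p = 3.64e-05). RPS27A, made as a fusion with ubiquitin, had 433 and 412 CPM and then 504 and 501 (0.25, SE 0.058, adjusted p = 0.0394). In both, the transcript counted was not the same in every library compared. Exons were 663 and 660 bases for RPS24 and 885 and 1057 for RPS27A in replicate 1 of WT and of Zab + MYC O/E. Processed pseudogenes of ribosomal proteins could take or give reads, which was not tested. Of 52 translation factors and tRNA synthetases, 3 fell and 0 rose, against 0.467% lower and 0.134% higher over all tested genes. Those that fell were EEF1A1 and EEF1G, of the elongation machinery, and the initiation factor EIF3L. EEF1A1 had 7538 and 7635 CPM in WT and 6514 and 6438 in Zab + MYC O/E (-0.23, SE 0.019, adjusted p = 3.71e-08). Of all genes from 1000 CPM up, where EEF1A1 lies, 39.3% were called.

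The list of cytosolic heat shock genes and their partners, which fold proteins, also held the mitochondrial HSPD1 and HSPE1. Of its 25 tested members 4 fell, HSPD1 among them, and 1 rose, HSPE1, with a median of -0.11. Over all tested genes 0.467% were lower and 0.134% higher. HSP90AB1 had 5654 and 5679 CPM in WT and 4758 and 4831 in Zab + MYC O/E (-0.24, SE 0.021, adjusted p = 4.84e-08). HSPA8, the constitutive HSP70, had 2778 and 2860.2 CPM and then 2459 and 2457 (-0.20, SE 0.026), and HSPA4 fell by 0.27. HSP90AB1, HSPA8 and the list's HSPD1 drew over 1000 CPM, and of all genes from 1000 CPM up 39.3% were called. The chaperonin subunits CCT5 and CCT6A, which were in no list, fell by 0.22 and 0.23.

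Relative to the median gene, HSPD1 and HSPE1, the mitochondrial chaperonin and its co-chaperonin with a shared start region, moved in opposite directions. The median gene itself shifted by 0.27 on the deposited values without scaling. HSPD1 lies among the genes from 1000 CPM up, whose median was -0.12. HSPE1 had 160.3 and 148 CPM in WT and 210.2 and 232 in Zab + MYC O/E (0.52, SE 0.093, adjusted p = 0.0033). HSPD1 had 1452 and 1447 CPM in WT and 1214 and 1236 in Zab + MYC O/E (-0.24, SE 0.038, adjusted p = 0.000527). The groups stood apart in both genes, as in every called gene. HSPE1 exons also belong to the readthrough gene HSPE1-MOB4, named here after its values were seen. It had 78.9 and 73.4 CPM in WT and 105 and 110.3 in Zab + MYC O/E (0.50, SE 0.13, adjusted p = 0.0949), so reads of the 2 genes cannot be told apart over shared exons.

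Glycolysis genes fell in 5 of 36 members, LDHA, LDHB, PGK1, ENO1 and GAPDH, and rose in 0, against 0.467% and 0.134% of all tested genes. LDHB and PGK1 lie among the genes of 300 to 1000 CPM, of which 6.56% were called, and LDHA, ENO1 and GAPDH among those from 1000 CPM up, of which 39.3% were. The list's median was -0.080, which turned to 0.015 above that of all genes with cyclic loess. LDHA, which makes lactate, had 1460.1 and 1454 CPM in WT and 1232 and 1195 in Zab + MYC O/E (-0.26, SE 0.034, adjusted p = 3.64e-05). GAPDH had 6987 and 6963 CPM and then 6239 and 6340.5 (-0.15, SE 0.018, adjusted p = 1.54e-05), and with cyclic loess it stood at 0.01 (adjusted p = 0.962). GAPDH, PGK1 and RPLP0 were the 3 of 16 reference genes that fell, against 0.467% of all tested genes. RPLP0 also drew over 1000 CPM.

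Of 59 canonical MYC targets 5 fell, ODC1, APEX1, WDR74, LDHA and HSPD1, and HSPE1 rose, against 0.467% lower and 0.134% higher over all tested genes. ODC1 lies among the genes of 300 to 1000 CPM, of which 6.56% were called. WDR74, LDHA and HSPD1 lie among those from 1000 CPM up, of which 39.3% were. The list's median was -0.065, and -0.022 after the median of genes of like level was taken off. ODC1, the first enzyme of polyamine synthesis, had 793 and 827 CPM in WT and 649 and 646 in Zab + MYC O/E (-0.32, SE 0.042, adjusted p = 3.64e-05), with 1354 and 1413 in MYC O/E. NCL, a nucleolar target, had 1469 and 1442 CPM and then 1367 and 1364 (-0.09, SE 0.036, adjusted p = 0.472). WDR74, a ribosome biogenesis factor, had 3412 and 3323 CPM and then 2865 and 2796 (-0.25, SE 0.032) and was the 1 of 76 ribosome biogenesis genes called. The 25 genes reported as MYC-repressed had 0 calls in limma, 0 in edgeR and a median of 0.028. At an unadjusted p under 0.05 there was 1 of them, against 925 of all 11985 tested genes. CDKN1A, a cell cycle inhibitor, stood at -0.02 (adjusted p = 0.984).

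Other genes fell one by one. KDM1A, the histone demethylase LSD1, had 234 and 251 CPM in WT and 163 and 179.5 in Zab + MYC O/E (-0.50, SE 0.081, adjusted p = 0.000823). RUVBL1, an ATPase of chromatin remodelling complexes, had 184 and 152 CPM and then 126 and 115 (-0.47, SE 0.10). It was the 1 member of 20 of the MYC network list that was called, against 0.601% of all tested genes. YTHDF2, a reader of m6A in RNA, had 145 and 145 CPM and then 106 and 104 (-0.46, SE 0.095). BMP8B, a secreted growth factor, had 12.9 and 22.8 CPM and then 4.65 and 6.92 (-1.44, SE 0.31, adjusted p = 0.0154), from 40 and 64 reads in WT and 18 and 28 in Zab + MYC O/E. Its fall was the largest of the 56.

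CCNB1, the mitotic cyclin, had 351 and 349 CPM in WT and 293 and 275 in Zab + MYC O/E (-0.30, SE 0.066, adjusted p = 0.023). It and CENPE were the 2 of 46 mitosis genes called, 1 in each direction, against 0.134% higher and 0.467% lower over all tested genes. The others that fell were YBX1, HNRNPK, XRCC6 and RACK1, which bind RNA, DNA or the ribosome, CANX, a chaperone of the endoplasmic reticulum, HADHA, of fatty acid oxidation, TPT1, and the cytoskeletal genes VIM and TUBA1B, by 0.15 to 0.31 on the log2 scale.

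Of the 37 lists, 13 held a called gene. Sensing of Z-form and double-stranded RNA (24 tested, median -0.078), interferon-stimulated genes (38, median 0.081), FACT and histone chaperones (29, median -0.062) and topoisomerases (11, median -0.088) each held 0 in limma. At an unadjusted p under 0.05 these lists held 4, 0, 7 and 1 genes, and edgeR called 1, 0, 2 and 0. Over all 11985 tested genes 925 passed that unadjusted cut, and edgeR called 49 higher and 97 lower. SUPT16H, the large subunit of FACT, had 264 and 278 CPM in WT and 236 and 237 in Zab + MYC O/E (-0.20, SE 0.079, adjusted p = 0.506). SSRP1, the other subunit, had 557 and 524 CPM and then 509 and 511 (-0.08, SE 0.050, adjusted p = 0.783). TOP1 stood at -0.04 (adjusted p = 0.972). Extracellular matrix genes (44 tested) had 0 calls and the highest median of the lists with at least 6 tested members, 0.083, with 5 at an unadjusted p under 0.05 and 1 called by edgeR. Tenascin C, TNC, had 308 and 314 CPM in WT and 362 and 373 in Zab + MYC O/E (0.24, SE 0.075, adjusted p = 0.231), and the collagen COL12A1 had 217 and 206 CPM and then 276 and 236 (0.27, SE 0.094, adjusted p = 0.34). The groups stood apart in both these matrix genes, as in 19.6% of all tested genes in the higher direction, but neither passed the test.

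Nucleotide synthesis (34 tested, median -0.10), the proteasome (40, median -0.063) and NRF2 and iron genes (35, median -0.099) had 0 calls in limma. At an unadjusted p under 0.05 they held 8, 9 and 8 genes, against 925 of all 11985 tested genes. In edgeR 1, 2 and 0 were called, against 49 higher and 97 lower over all tested genes. PSMD1, of the proteasome's regulatory particle, had 284 and 311 CPM in WT and 259 and 227 in Zab + MYC O/E (-0.29, SE 0.077, adjusted p = 0.0984). ATIC, of purine synthesis, had 254 and 239 CPM and then 195 and 203 (-0.31, SE 0.084, adjusted p = 0.121). FTH1, the ferritin heavy chain, had 2319 and 2322 CPM and then 2116 and 2167 (-0.12, SE 0.034, adjusted p = 0.166). In all 3 the groups did not overlap, as held for 20.2% of all tested genes in the lower direction. CDK1, the mitotic kinase that pairs with CCNB1, had 75.9 and 60.2 CPM in WT and 99.2 and 92.5 in Zab + MYC O/E (0.50, SE 0.15, adjusted p = 0.175).

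**Figure D4:**
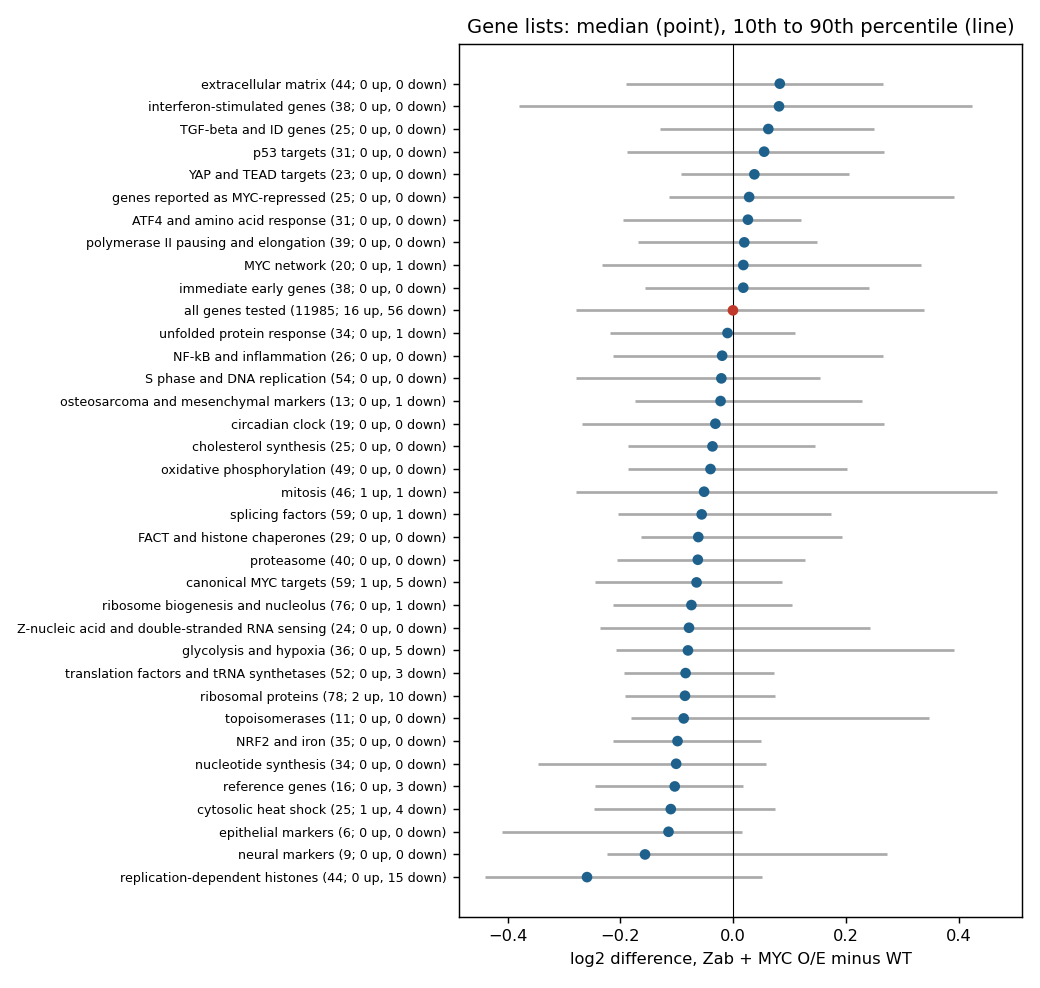
Each line is a gene list with at least 6 tested members, and all tested genes in red; x is the log2 difference, Zab + MYC O/E minus WT. Points are medians, lines run from the 10th to the 90th percentile, and the numbers give members tested and called. Replication-dependent histones stand lowest, at -0.26, and most other medians lie within 0.1 of 0.

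Over all tested genes, the difference moved with the number of reads a gene drew. The median was 0.062 for genes under 10 CPM, 0.022 from 10 to 30, 0.001 from 30 to 100, -0.022 from 100 to 300, -0.069 from 300 to 1000 and -0.12 from 1000 CPM up. In the last band, 57 of 61 genes lay below 0, 23 fell and 1, PLEC, rose. Most of the genes that fell, 46 of 56, drew at least 300 CPM, so the ribosomal, glycolytic and heat shock genes above lie in the bands with medians below 0. Taking off the median of each gene's band left list medians of -0.010 for ribosomal proteins, 0.010 for glycolysis, -0.088 for heat shock and -0.23 for histones. Cyclic loess removes this dependence by construction. All 16 genes that rose and 14 of the 56 that fell were called with it.

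The difference also moved with exon length. The median was -0.040 for genes under 1 kb, -0.030 from 1 to 2 kb, -0.013 from 2 to 4 kb, 0.014 from 4 to 8 kb and 0.066 for 8 kb and over. Without the histones the shortest class stood at -0.020. In each band of CPM up to 1000, genes of 8 kb and over had the highest median, such as 0.15 under 10 CPM and 0.035 from 100 to 300 CPM, where genes under 1 kb had 0.017 and -0.071. The difference between the libraries numbered 1 alone gave 0.055 for genes of 8 kb and over and that between the libraries numbered 2 gave 0.068, against -0.038 and -0.032 under 1 kb. RNA integrity and fragment length were not tested.

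**Figure D5:**
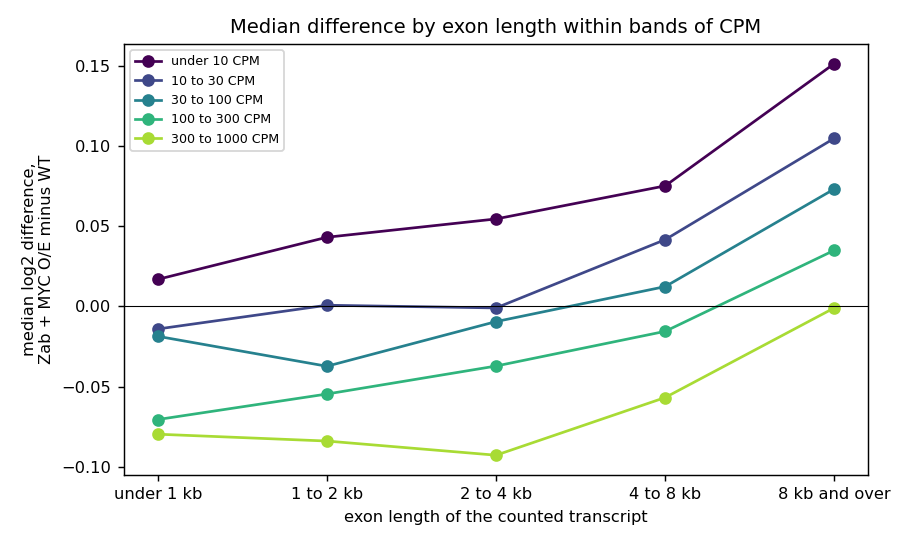
Lines join the median log2 difference, Zab + MYC O/E minus WT (y), of genes in 5 classes of exon length (x), 1 line for each band of mean CPM up to 1000. All 5 lines are highest at 8 kb and over, from 0.15 under 10 CPM to -0.00098 at 300 to 1000 CPM.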

How the data were processed

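Per the file headers, the authors used HOMER to count tags in RefSeq coding exons (hg19), on the opposite strand and over 1 transcript per gene. Tools listed in the submitters' processing notes are STAR, Trim Galore 0.6.6, bedtools 2.29.2 and SAMtools 1.11, with the builds hg19 and dm6. The deposited values are a signal: whole reads multiplied by a factor that differs between libraries. How that factor was set is not given in the sources here. Dividing by the step recovered whole reads for at least 99.9% of values, within 0.02 of a read. Reads mostly came in twos.

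The deposited values were scaled to CPM by TMM (edgeR 4.0.16). Genes passing filterByExpr at 10 reads (11985 of 19414) were tested with limma 3.58.1 (R 4.3.3, trend) on log2(CPM + 1), all 8 libraries in 1 fit with 4 residual degrees of freedom, Benjamini-Hochberg adjusted over all genes. The pseudocount of 1 understates changes of low genes. edgeR's quasi-likelihood test and DESeq2 1.42.0 on recovered reads were alternatives. The method was tested on simulated data.

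Members and gene lists were chosen with earlier results of these data known. Named genes were the 12 largest rises and falls among called genes with at least 10 CPM, and the 12 called genes of smallest p. The 3 members of smallest p in each list, called or not, were named too. Added to these were TOP1, CDKN1A, ODC1, NCL, SSRP1, SUPT16H, ZBP1, ADARB1, ADAR, MAX and MYC. Not all of these are described, and some items are not reported here. The other called genes were named after their values were seen. Lists are described by counts and medians, without a test. Promoters are RefSeq's, matched by symbol.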

Additional observations from a re-analysis of the deposited data

How the results depend on the processing

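The genes called higher and lower, 16 and 56, came to 49 and 97 in edgeR's quasi-likelihood test on recovered reads (all 72 among them), 13 and 105 in DESeq2, 70 and 122 with only the 4 libraries in the fit, and 60 and 131 without the libraries labelled Zab. They came to 19 and 32 with library totals, 1741 and 2 on the deposited values, 4 and 13 with every gene with a read, 23 and 14 with cyclic loess, 10 and 52 over the same transcript, 11 and 24 in edgeR on summed pairs, and 0 and 0 with pairs as 1 library each. Leaving out 1 library gave 3 to 7 higher and 19 to 27 lower. The settings without the libraries labelled Zab, with cyclic loess, the same transcript and summed pairs were chosen after seeing the data. The replicate numbers do not pair the libraries: deviations of same-numbered libraries correlated at -0.027 to 0.0076. The replicate block gave 16 higher and 60 lower. In MYC O/E over Zab, 3547 higher and 3202 lower became 8999 and 597 on the deposited values, and 2227 were higher over the same transcript.

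Values below are relative to the median of all genes. With cyclic loess GAPDH turned to 0.0045, and the medians of the unfolded protein response to 0.017, glycolysis to 0.015, mesenchymal markers to 0.023 and small-subunit ribosomal proteins to 0.0052. MYC turned to 0.0049 on the deposited values. With a minimum of 50 reads, MYC-repressed genes turned to -0.0012, the unfolded protein response to 0.018 and mesenchymal markers to 0.00014. MYC-repressed genes turned to -0.0054 with only the 4 libraries, and NF-kB genes to 0.062 over the same transcript. Medians that changed sign with 1 library left out ranged from -0.0803 to 0.0547 for cholesterol synthesis, -0.0216 to 0.0229 for the unfolded protein response, -0.00366 to 0.045 for ATF4 genes, -0.0105 to 0.0465 for p53 targets, -0.0698 to 0.0396 for NF-kB genes, -0.0338 to 0.0155 for polymerase II pausing, -0.0672 to 0.106 for the circadian clock, -0.0359 to 0.0221 for mesenchymal and -0.192 to 0.0106 for neural markers. The cause was not tested. Under 10 CPM, 0 of 2387 genes were called by limma, where MYC O/E over Zab had 445 higher and 361 lower.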

Other observations

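By chromosome, the median log2 difference, Zab + MYC O/E minus WT, lay between -0.023 on chromosome 10 and 0.029 on chromosome 19. Of 623 tested genes on chromosome 6, 17 fell, against 0.467% of all tested genes. Without the histones 3 of 586 did, HSP90AB1, RPS18 and EEF1A1. Of those 586, 0.683% were called in either direction, against 0.601% of all tested genes. The 1323 genes spanning 100 to 200 kb of the genome had a median of 0.025, with 4 higher and 0 lower (0.302% called). The 1172 genes under 5 kb had a median of -0.0085, with 3 higher and 25 lower (2.39% called). The 15 called histones are among those 25.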
